A study of Homo sapiens with 12 samples.

Results

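The genes described here encode 10 integrin subunits of melanoma cells: ITGA2, ITGA3, ITGA4, ITGA5, ITGA6, ITGAV, ITGB1, ITGB3, ITGB5 and ITGB8. The rule takes them by symbol and uses no measured value, though the set was drawn up with earlier results of these data known. All 10 were found among 58288 gene identifiers. RNA came from MV3, an established human melanoma line from a lymph node metastasis, maintained in medium with 10% serum and held for 3 h in RPMI with 1% serum. For the next 24 h the cells received RPMI conditioned by THP-1 macrophages or fresh RPMI, with serum at 1% in all groups. THP-1 is a human monocyte line, so the macrophages are those of 1 line, and the melanoma cells are likewise 1 line. The 4 groups were M1 (macrophages differentiated with PMA, a phorbol ester, and then polarized with LPS and IFNγ), M2 (the same differentiation, then IL4 and IL13), M0 (PMA alone) and Ctrl (fresh medium never in contact with cells), with n = 3 each. No label says that replicates were separate cultures, so the spread that p-values measure may be a technical one.

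Integrins are receptors in the cell membrane made of 1 α and 1 β chain, and the pair decides which matrix protein or cell surface protein is bound. The β1 chain joins α2 to make a collagen receptor, α3 and α6 to make laminin receptors, α5 to make the main fibronectin receptor, and α4 to make a receptor for VCAM1 and fibronectin. The αV chain joins β1, β3, β5 and β8, which gives receptors for vitronectin and other proteins with an RGD sequence, and αVβ8 is known for activating latent TGF-β. In melanoma, αVβ3 is a long-known marker of the change to vertical, invasive growth.

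Library totals ran from 21788397 to 42921242 reads, of which the 10 subunit genes held 69060 to 208018 per library. A count of 0 in 1 library allows up to 3 reads, or 0.0699 to 0.138 CPM, counts scaled to library size, and this floor covers counting error only. All 10 genes passed the filter on low counts, together with the rest of the 14088 genes tested. ITGB3 with 1353 reads and ITGB8 with 1425 reads over the 12 libraries were the thinnest, against 536549 reads for ITGB1. Genes with reads in a single library numbered 3759 for M2 replicate 2, against 160 to 453 for each other library, and M0 replicate 3 lay apart from the other M0 libraries on the third principal component. Results that rest on either library are given without it as well.

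Of 19 macrophage marker genes none passed the filter, and their summed level was 0.685 to 0.900 CPM in M1, 0.465 to 1.10 CPM in M2, 0.652 to 0.945 CPM in M0 and 0.770 to 1.17 CPM in Ctrl. AIF1, C1QB and MARCO had 0 reads in all 12 libraries. Of 13 melanoma and melanocyte markers 5 passed (MITF, PRAME, MCAM, CSPG4 and AXL), while the defining pigment cell markers were at or near 0, with 0 reads for TYR and S100B and 1 read each for SOX10 and MLANA over all libraries. The markers therefore do not show pigment cell identity in the line, and its name rests on the labels. Summed, the 13 markers stood at 1371 to 1478 CPM in M1, 1908 to 1990 CPM in M2, 2213 to 2328 CPM in M0 and 2505 to 3210 CPM in Ctrl. AXL held 733861 reads over the 12 libraries, against 28048 for PRAME, the next highest marker. The sum therefore mostly follows AXL and does not show that the markers moved together. That sum moved with the media, and its part in the results below was not tested.

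Per kilobase of exon (TMM-scaled CPM divided by the summed exon length of the gene), ITGB1 was the highest subunit in every group. Its level per kb averaged 280 ± 9.90 in M1, 202 ± 2.64 in M2, 208 ± 3.31 in M0 and 224 ± 19.7 in Ctrl (SD, n = 3 each). The next gene differed by medium. In M1 it was ITGA2 at 110 ± 12.6 per kb, while ITGA6 took that place in M2 at 81.5 ± 2.62, in M0 at 115 ± 16.1 and in Ctrl at 176 ± 27.0 per kb. The libraries of the first and second gene did not overlap in any group. In M1 the third to sixth places (ITGA5, ITGA6, ITGAV and ITGB5, at 48.1, 43.5, 39.5 and 37.3 per kb) were held by neighbours whose libraries overlapped. In M0 the same was true of the third to seventh places, ITGB5, ITGA3, ITGA5, ITGA2 and ITGAV, at 36.2 to 22.9 per kb. In Ctrl it was true of the third to eighth places, ITGA2, ITGA3, ITGB5, ITGA4, ITGA5 and ITGAV, at 46.3 to 22.4 per kb. Neighbours in the M2 order did not overlap anywhere. ITGB3 and ITGB8 came last in all 4 groups, with ITGB3 above ITGB8 in M1, M2 and M0 and below it in Ctrl. Dividing by the longest transcript in place of all exons kept ITGB1 first and the named second genes second. ITGB3 and ITGB8 stayed last in the same order, while some genes in the middle places changed order. A large part of the exon sequence of ITGB3, 2266 of 4394 bases, is shared in the annotation with the gene AC068234.1 on the same strand, which was listed at 0 reads in every library, and reads in shared exons may have gone uncounted. The level of ITGB3 per kb may for that reason be too low, which was not tested.

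**Figure D1:**
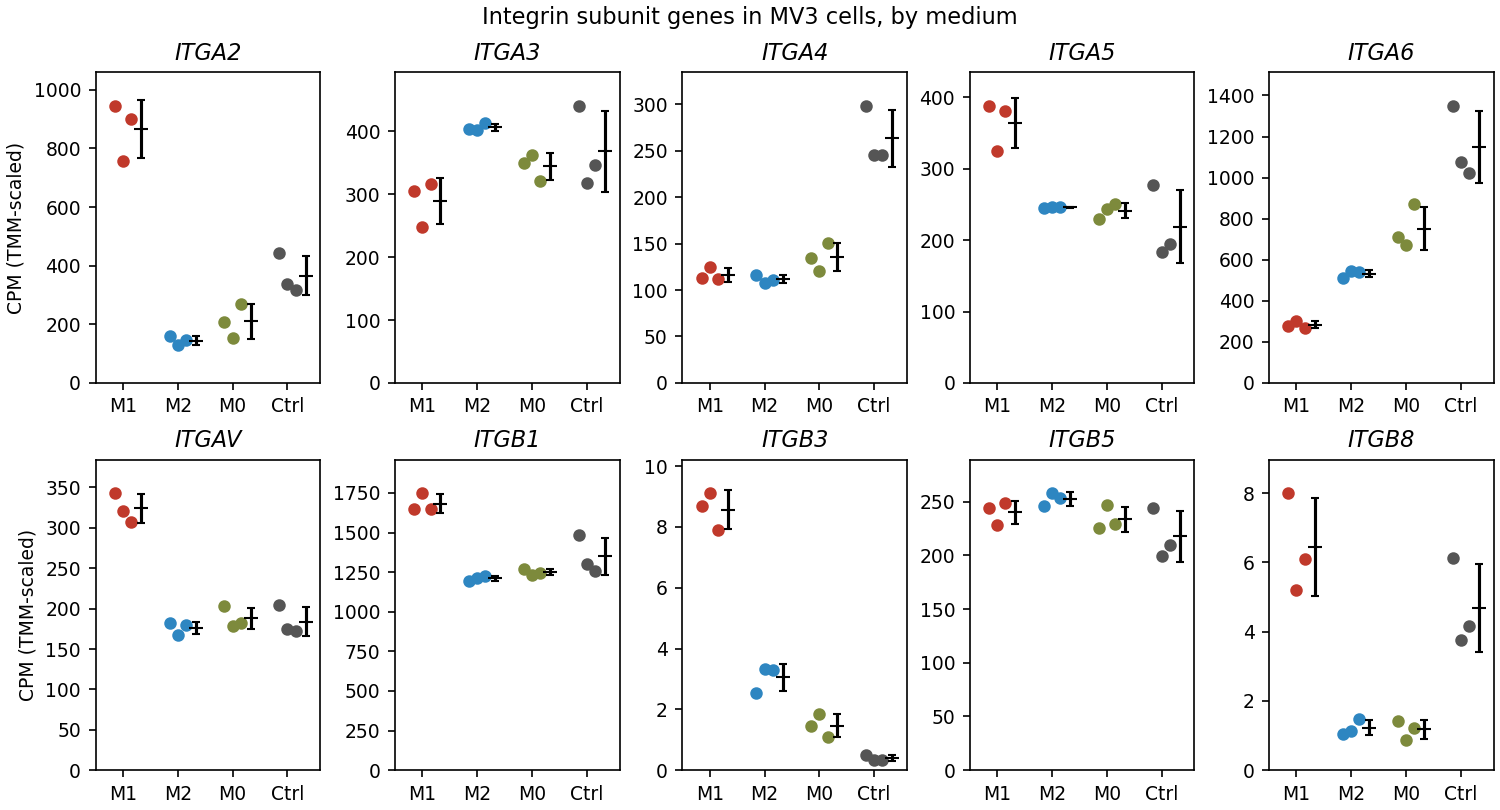
TMM-scaled CPM of each subunit gene (one panel per gene, y axes start at 0 and differ between panels) in the libraries of M1, M2, M0 and Ctrl, with points for libraries and bars for the mean ± SD. ITGA2, ITGAV and ITGB3 stand highest in M1, ITGA6 and ITGA4 stand highest in Ctrl, and ITGB5 lies between 199 and 258 CPM in all 12 libraries.

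The first comparison was of M1 with M0 medium, whose macrophages differed in polarization with LPS and IFNγ. Whether differences came from macrophage products or from any agents left in the medium was not tested, here or in the comparisons below. Of the 10 subunit genes 6 rose and 1 fell in M1, by edgeR's quasi-likelihood test with adjusted p under 0.05. This test called 52.2% of all genes tested, 25.5% as higher and 26.7% as lower. Calls were thus common among all genes. At least 2-fold changes were called for 4 of the 10 genes (ITGA2, ITGA6, ITGB3 and ITGB8), against 9.19% of all genes tested. The median log2 fold change of the 10 genes was 0.51, against -0.01 for all genes. In bulk RNA a smaller share of cells with a transcript and less of it per cell cannot be told apart.

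ITGA2, the collagen-binding α2 chain on the plus strand of chr5:52989326-53094779 (GRCh38), had 947, 756 and 900 CPM in M1, against 206, 152 and 271 CPM in M0. The lowest M1 library was above the highest M0 library. The log2 fold change was 2.05 ± 0.26 (standard error, SE, from the spread of 3 and 3 libraries), a 4.13-fold rise with an edgeR adjusted p of 1.99e-07. In fresh medium ITGA2 stood between these groups, at 443, 339 and 316 CPM in Ctrl.

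The laminin-binding chains did not follow ITGA2. ITGA6, the α6 chain on the plus strand of chr2:172427354-172506282, had 280, 303 and 270 CPM in M1, against 708, 673 and 870 CPM in M0, with no overlap. It fell by 1.40 ± 0.12 on the log2 scale, to a level 2.64-fold lower in M1 (edgeR adjusted p = 5.95e-08). ITGA3, the α3 chain on the plus strand of chr17:50055968-50090481, had 305, 248 and 316 CPM in M1, against 349, 363 and 321 CPM in M0. These groups did not overlap either, but the log2 fold change of -0.25 ± 0.12 missed the threshold (edgeR adjusted p = 0.0639).

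Among the fibronectin-binding chains, ITGA5 on the minus strand of chr12:54395261-54419460 had 389, 325 and 381 CPM in M1, against 230, 244 and 251 CPM in M0. It rose by a log2 of 0.60 ± 0.09 (edgeR adjusted p = 0.000631), with every M1 library above every M0 library. ITGA4, the α4 chain on the plus strand of chr2:181457202-181536187, had 113, 125 and 112 CPM in M1, against 135, 120 and 151 CPM in M0. The highest M1 library lay above the lowest M0 library, and the log2 fold change of -0.22 ± 0.11 did not pass (edgeR adjusted p = 0.0529).

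ITGAV, the α chain of the vitronectin receptors on the plus strand of chr2:186590065-186680901, had 343, 321 and 308 CPM in M1, against 203, 178 and 182 CPM in M0. All M1 libraries were above all M0 libraries, and the log2 fold change was 0.79 ± 0.07 (edgeR adjusted p = 1.04e-06). The β chains that can join it behaved unequally. ITGB3, the β3 chain on the plus strand of chr17:47253846-47311816, had 343, 285 and 289 reads in M1, against 43, 40 and 31 reads in M0. In CPM this was 8.70, 9.12 and 7.88 in M1, against 1.45, 1.86 and 1.09 in M0, a rise of log2 2.57 ± 0.22 or 5.92-fold (edgeR adjusted p = 3.17e-08). ITGB8, the β8 chain on the plus strand of chr7:20330702-20415754, had 8.01, 5.22 and 6.11 CPM in M1, against 1.42, 0.885 and 1.23 CPM in M0. It rose 5.39-fold, a log2 of 2.43 ± 0.26 (edgeR adjusted p = 1.14e-06). ITGB5, the β5 chain on the minus strand of chr3:124761948-124901418, had 244, 228 and 249 CPM in M1, against 225, 247 and 229 CPM in M0. The groups overlapped, with a log2 fold change of 0.04 ± 0.06 (edgeR adjusted p = 0.662).

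ITGB1, the β1 chain shared by most of the α chains and located on the minus strand of chr10:32900319-33005792, had 1649, 1751 and 1647 CPM in M1, against 1273, 1235 and 1244 CPM in M0. The groups were far apart relative to their spread, and the rise was a log2 of 0.43 ± 0.03 (edgeR adjusted p = 5.59e-05). In CPM the gain of ITGB1 was the second largest of the 10 genes after that of ITGA2, while ITGB3 and ITGB8, with the largest folds, stayed below 10 CPM.

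**Figure D2:**
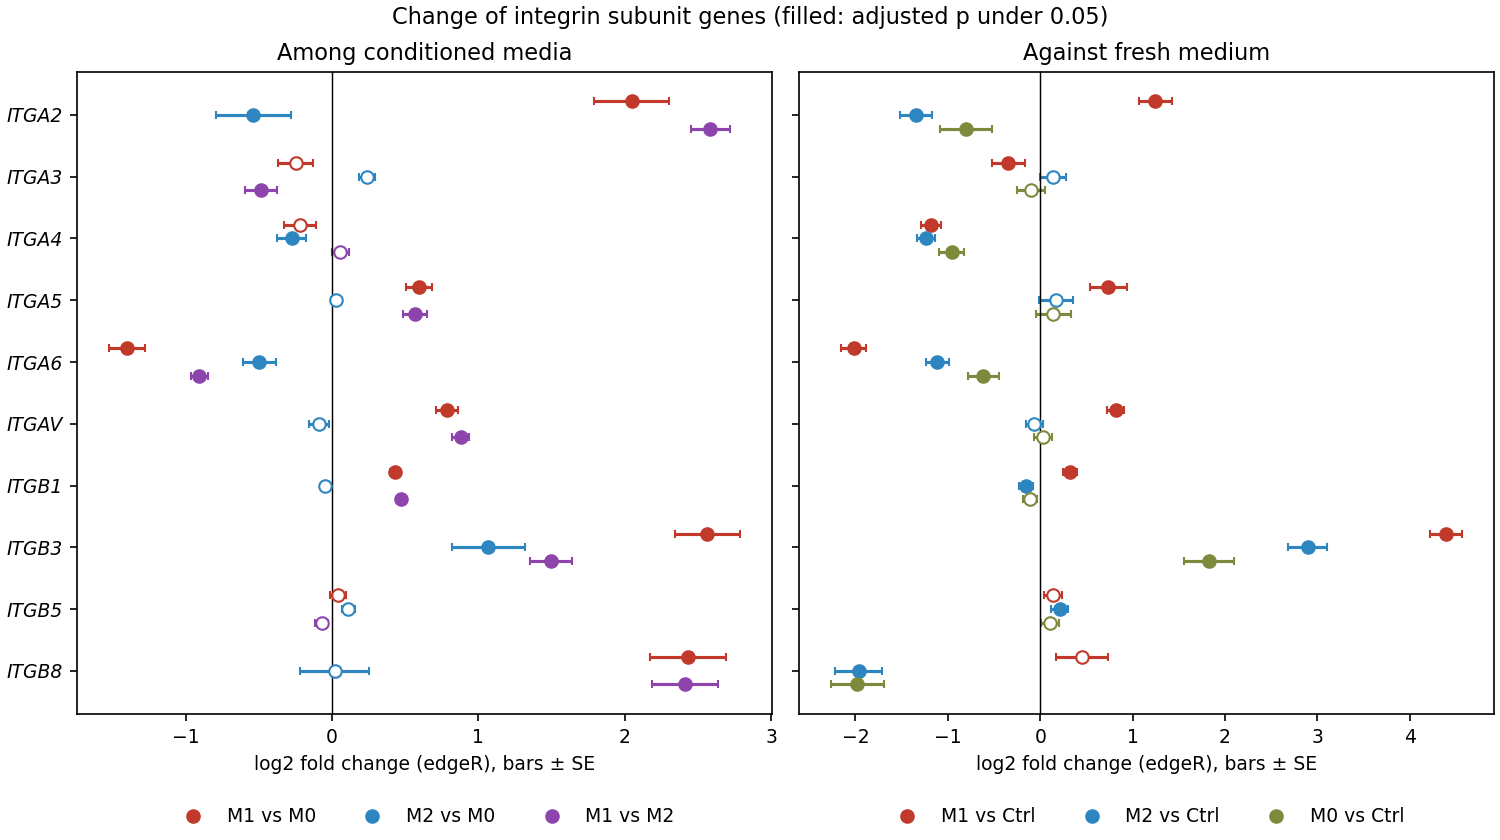
Log2 fold change of each subunit gene (x axis, edgeR, points with bars of ± SE, filled where the adjusted p was under 0.05) among the 3 conditioned media on the left and against fresh medium on the right. M1 against M0 runs from -1.40 for ITGA6 to 2.57 for ITGB3, M2 against M0 stays between -0.54 and 1.07, and ITGB3 lies right of 0 in all 6 comparisons.

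Sequence before the start of transcription was read for the subunits from RefSeq (GRCh38.p14), as 250 bases ahead of each start. Windows were found for 8 of the 10 genes, 13 windows in all, and none was used for ITGA3 and ITGB3. The first windows of ITGA2, ITGAV and ITGA6 are shown because these α chains moved most in M1 medium, ITGA2 and ITGAV up and ITGA6 down. They lie on the plus strand at chr5:52989102-52989351 for ITGA2, chr2:186589806-186590055 for ITGAV and chr2:172427086-172427335 for ITGA6, and are written 5′ to 3′ with matches to the SP1 motif GGGCGG in capitals.
ITGA2: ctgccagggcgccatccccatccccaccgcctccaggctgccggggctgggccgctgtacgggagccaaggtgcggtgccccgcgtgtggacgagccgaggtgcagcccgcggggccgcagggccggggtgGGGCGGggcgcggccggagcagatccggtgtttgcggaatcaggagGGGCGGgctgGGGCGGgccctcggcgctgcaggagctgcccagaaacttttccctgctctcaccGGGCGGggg
ITGAV: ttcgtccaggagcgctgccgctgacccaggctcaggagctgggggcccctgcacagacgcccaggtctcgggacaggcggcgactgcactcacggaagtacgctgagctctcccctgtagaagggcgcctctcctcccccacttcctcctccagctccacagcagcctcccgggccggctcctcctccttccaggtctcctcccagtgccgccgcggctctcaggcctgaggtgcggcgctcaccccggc
ITGA6: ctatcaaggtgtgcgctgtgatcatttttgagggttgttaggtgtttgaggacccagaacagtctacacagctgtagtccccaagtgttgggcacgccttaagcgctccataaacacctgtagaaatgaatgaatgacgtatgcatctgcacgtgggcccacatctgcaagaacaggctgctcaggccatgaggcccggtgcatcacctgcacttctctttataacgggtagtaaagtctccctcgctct
The ITGA2 window held 4 SP1 matches and was 76.4% G and C, and its last 26 bases lie within the annotated gene. The ITGAV window, 70.8% G and C, and the ITGA6 window, 50.8% G and C, held no match to any of the 6 motifs searched. A second ITGA6 window, at chr2:172427336-172427585 and mostly inside the annotated gene, was 71.6% G and C and held 3 SP1 matches. The 6 motifs searched, on both strands, were SP1, AP-1 (TGANTCA), NF-kB (GGGA, any 2 bases, TTCC), the STAT site GAS (TTC, any 3 bases, GAA), CRE (TGACGTCA) and ISRE (GAAA, any 2 bases, GAAA). Of the 13 windows 7 held an SP1 match, against 42.6% of 35116 promoter windows of all genes, and 1, of ITGB5, held an ISRE match, against 3.02%. None held AP-1, NF-kB, GAS or CRE, which occurred in 6.57%, 1.4%, 6.57% and 1.65% of all windows. A match is a run of letters, not a site shown to be bound, and a window without one says only that these letters are not in it.

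Medium from M2 macrophages was then compared with M0 medium, the matching comparison for IL4 and IL13. The subunits moved less. Of the 10 genes 1 rose and 3 fell, where the test called 25.2% of all genes, 12.5% as higher and 12.7% as lower, and 1 of the 10 was called with at least a 2-fold change, against 2.22% of all genes. The median log2 fold change of the 10 was -0.02, against 0.00 for all genes. The calls of ITGA2 and ITGA4 rest on single libraries: both were lost, and those of ITGB3 and ITGA6 kept, when M0 replicate 1, M0 replicate 3, M2 replicate 2 or M2 replicate 3 was left out. With M0 replicate 3 and M2 replicate 2 both left out, 0 of the 10 and 520 of all genes were called, in place of 4 and 3553.

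ITGB3 was the member that rose, with 2.52, 3.33 and 3.29 CPM in M2, against 1.45, 1.86 and 1.09 CPM in M0. The groups did not overlap, and the log2 fold change was 1.07 ± 0.25 (edgeR adjusted p = 0.00218), or 0.82 without M0 replicate 3 and M2 replicate 2 (adjusted p = 0.0562). ITGA6 had 513, 543 and 542 CPM in M2, against 708, 673 and 870 CPM in M0, where replicate 3 was the highest library. It fell by 0.50 ± 0.12 on the log2 scale with no overlap (edgeR adjusted p = 0.00406), and without M0 replicate 3 and M2 replicate 2 the value was -0.39 (adjusted p = 0.0673).

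ITGA2 had 159, 128 and 147 CPM in M2, against 206, 152 and 271 CPM in M0, and these groups overlapped. Its log2 fold change was -0.54 ± 0.26 (edgeR adjusted p = 0.0291), and -0.31 without M0 replicate 3 (adjusted p = 0.211). ITGA4 had 117, 108 and 111 CPM in M2, against 135, 120 and 151 CPM in M0. The groups did not overlap, but the log2 fold change of -0.28 ± 0.10 (edgeR adjusted p = 0.0363) became -0.19 without M0 replicate 3 (adjusted p = 0.190). The other 6 genes did not pass. ITGA5, ITGAV, ITGB1, ITGB5 and ITGB8 had log2 fold changes of 0.03, -0.09, -0.05, 0.11 and 0.02, and ITGA3 one of 0.24 with an adjusted p of 0.116.

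The M1 and M2 media were compared directly, which is the test of whether the effects of these media differed. Of the 10 genes 6 rose and 2 fell in M1 relative to M2, where 32.5% of all genes were called, 15.9% as higher and 16.6% as lower. At least 2-fold changes were called for ITGA2, ITGB3 and ITGB8, against 4.84% of all genes. The median log2 fold change of the 10 was 0.52, against -0.03 for all genes.

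ITGA2 differed most between these media, followed by ITGB8 and ITGB3. ITGA2 averaged 867 ± 99.3 CPM in M1 and 144 ± 15.2 CPM in M2 (SD, n = 3 each), a log2 fold change of 2.59 ± 0.13 or 6.0-fold (edgeR adjusted p = 1.92e-08). ITGA6 averaged 284 ± 17.3 CPM in M1 and 532 ± 17.1 CPM in M2 and was lower in M1 by a log2 of -0.91 ± 0.06 (edgeR adjusted p = 8.78e-06). ITGA3, which passed against M0 in neither medium, averaged 290 ± 36.4 CPM in M1 and 406 ± 5.50 CPM in M2, a log2 of -0.49 ± 0.11 (edgeR adjusted p = 0.0028). Both laminin chains were thus lower, and the collagen chain higher, in M1 than in M2.

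ITGAV and its partners ITGB3 and ITGB8 were higher in M1 as well, while its partner ITGB5 did not pass. ITGAV averaged 324 ± 18.1 CPM in M1 and 176 ± 7.63 CPM in M2, a log2 of 0.88 ± 0.06 (edgeR adjusted p = 3.95e-07). ITGB3 averaged 8.57 ± 0.629 CPM in M1 and 3.05 ± 0.457 CPM in M2, a log2 of 1.50 ± 0.14 (edgeR adjusted p = 4.50e-06). For ITGB8 the averages were 6.45 ± 1.43 CPM in M1 and 1.22 ± 0.217 CPM in M2, a log2 of 2.42 ± 0.23 (edgeR adjusted p = 1.28e-06). ITGA5 with a log2 of 0.57 and ITGB1 with a log2 of 0.47 also rose (edgeR adjusted p = 0.00179 and 4.05e-05). ITGA4 with a log2 of 0.06 did not pass, nor did ITGB5 with one of -0.07.

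Each conditioned medium was finally compared with fresh medium. These comparisons share the Ctrl libraries. They include conditioning of the medium by cells, the state of the macrophages and the agents given to them. Ctrl replicate 1 was the highest Ctrl library for all 10 genes, for example 1351 CPM for ITGA6, against 1076 and 1024 CPM in the other Ctrl libraries. Of the 10 genes 5 rose and 3 fell in M1, where 70.2% of all genes were called, 35.2% as higher and 35.0% as lower. In M2 2 rose and 5 fell, where 66.5% of all genes were called, 34.1% as higher and 32.4% as lower. In M0 1 rose and 4 fell, where 61.7% of all genes were called, 31.1% as higher and 30.6% as lower. Most genes were called in these comparisons, so the counts say little about the subunits and the sizes are given.

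ITGB3 had the largest change of the 10 genes in M1 and M2, and ITGB8 in M0. ITGB3 averaged 8.57 ± 0.629 CPM in M1, 3.05 ± 0.457 CPM in M2 and 1.47 ± 0.388 CPM in M0, against 0.394 ± 0.0942 CPM in Ctrl, where the libraries held 22, 10 and 11 reads. Its log2 fold change over Ctrl was 4.39 ± 0.18 in M1, or 21.0-fold (edgeR adjusted p = 7.13e-11), 2.89 ± 0.21 in M2 (adjusted p = 3.02e-08) and 1.83 ± 0.27 in M0 (adjusted p = 2.02e-05). No library of M1, M2 or M0 was as low as the highest Ctrl library. ITGB8, the other scarce β chain, averaged 6.45 ± 1.43 CPM in M1, 1.22 ± 0.217 CPM in M2 and 1.18 ± 0.270 CPM in M0, against 4.68 ± 1.28 CPM in Ctrl. It fell by 1.96 ± 0.25 on the log2 scale in M2 (edgeR adjusted p = 2.98e-06) and by 1.98 ± 0.29 in M0 (adjusted p = 4.74e-06). In M1 its log2 fold change over Ctrl was 0.45 ± 0.28 (edgeR adjusted p = 0.053), and 0.70 without Ctrl replicate 1 (adjusted p = 0.00563).

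ITGA4 and ITGA6 were lower in all 3 conditioned media. ITGA4 averaged 116 ± 7.13 CPM in M1, 112 ± 4.46 CPM in M2 and 135 ± 15.4 CPM in M0, against 263 ± 30.6 CPM in Ctrl, with log2 fold changes of -1.18 ± 0.11, -1.24 ± 0.10 and -0.96 ± 0.13 (edgeR adjusted p = 1.38e-08, 1.18e-08 and 2.46e-07 in M1, M2 and M0). ITGA6 averaged 284 ± 17.3 CPM in M1, 532 ± 17.1 CPM in M2 and 750 ± 105 CPM in M0, against 1150 ± 176 CPM in Ctrl. It fell by 2.02 ± 0.13 on the log2 scale in M1, a level 4.05-fold lower than in Ctrl (edgeR adjusted p = 2.11e-10), by 1.11 ± 0.13 in M2 and by 0.62 ± 0.17 in M0. Every library of these media was below every Ctrl library for both genes.

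ITGA2 changed in both directions. Against 366 ± 67.4 CPM in Ctrl it rose in M1 by a log2 of 1.24 ± 0.18 (edgeR adjusted p = 7.21e-06) and fell in M2 by 1.34 ± 0.17 (adjusted p = 4.36e-06) and in M0 by 0.80 ± 0.28 (adjusted p = 0.000666). The M1 libraries lay wholly above, and the M2 and M0 libraries wholly below, those of Ctrl. ITGAV rose in M1 by a log2 of 0.82 ± 0.09 (edgeR adjusted p = 1.39e-07), while its log2 values were -0.06 in M2 and 0.03 in M0, neither of which passed. ITGA5 rose in M1 by 0.74 ± 0.20 (edgeR adjusted p = 4.34e-05), with values of 0.17 in M2 and 0.14 in M0 that passed only when Ctrl replicate 1 was left out (0.36 in M2 and 0.33 in M0).

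The smaller changes were less stable. ITGB1 rose in M1 by a log2 of 0.32 ± 0.08 (edgeR adjusted p = 0.000339), and its value of -0.16 ± 0.07 in M2 (adjusted p = 0.0418) lost its call without Ctrl replicate 1 or any 1 of the 3 M2 libraries. ITGB5 in M2, at 0.21 ± 0.09 (edgeR adjusted p = 0.0181), lost its call without Ctrl replicate 2, Ctrl replicate 3 or M2 replicate 2. With all libraries it did not pass in M1 or M0. Without Ctrl replicate 1 ITGB5 passed in both, at 0.23 in M1 and 0.17 in M0 (edgeR adjusted p = 0.00477 and 0.0307). In M1 it passed without M1 replicate 2 as well (edgeR adjusted p = 0.0460). ITGA3 in M1, at -0.35 ± 0.18 (edgeR adjusted p = 0.00927), lost its call without Ctrl replicate 1 or M1 replicate 2. Its value was 0.14 in M2 and -0.10 in M0, neither of which passed. Without Ctrl replicate 1 the M2 value of ITGA3 was 0.27 and passed (edgeR adjusted p = 0.0208).

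Levels per kb allow the make-up of the α and β transcripts to be described, each as a share of the 18 α genes or the 8 β genes known in human. These shares are of RNA, not of receptors on the cell. ITGA2 made up 36.9% ± 1.89 of the α transcripts in M1, 8.25% ± 0.83 in M2, 10.1% ± 2.01 in M0 and 13.1% ± 0.46 in Ctrl (SD, n = 3 each). ITGA6 made up 14.8% ± 1.84 in M1, 36.8% ± 1.23 in M2, 44.2% ± 2.34 in M0 and 50.0% ± 0.80 in Ctrl. The leading α transcript was therefore ITGA2 in M1 and ITGA6 in the other 3 groups. The ratio of ITGA2 to ITGA6 per kb was 2.54 ± 0.41 in M1, 0.225 ± 0.030 in M2, 0.228 ± 0.037 in M0 and 0.262 ± 0.008 in Ctrl. With the longest transcript as the length, ITGA2 made up 29.4% in M1, 6.05% in M2, 7.73% in M0 and 10.1% in Ctrl, and the ratio was 2.18 in M1, 0.194 in M2, 0.200 in M0 and 0.227 in Ctrl. A ratio within a library does not depend on how libraries are scaled.

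The other α chains shifted less. ITGAV held 13.4% in M1, 9.69% in M2, 8.86% in M0 and 6.40% in Ctrl, and ITGA5 held 16.2%, 14.7%, 12.3% and 8.14% in that order of groups. The ratio of ITGA5 to ITGA4, the fibronectin receptor chain over the VCAM1 receptor chain, was 3.29 in M1, 2.30 in M2, 1.87 in M0 and 0.858 in Ctrl. Summed per kb, the α genes stood at 296 ± 19.5 in M1, 221 ± 2.56 in M2, 259 ± 22.6 in M0 and 352 ± 54.9 in Ctrl, where replicate 1 at 415 lay above the other 2 libraries at 323 and 317. The β sum was 320 ± 8.31 in M1, 242 in M2, 245 in M0 and 259 ± 23.2 in Ctrl. In the β sum ITGB1 held 87.6% in M1, 83.4% in M2, 85.0% in M0 and 86.8% in Ctrl, and ITGB5 nearly all of the rest. ITGB3 held 0.610% in M1, 0.287% in M2, 0.136% in M0 and 0.0344% in Ctrl, so that its 21.0-fold rise over Ctrl in M1 left it a small part of the β transcripts.

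**Figure D3:**
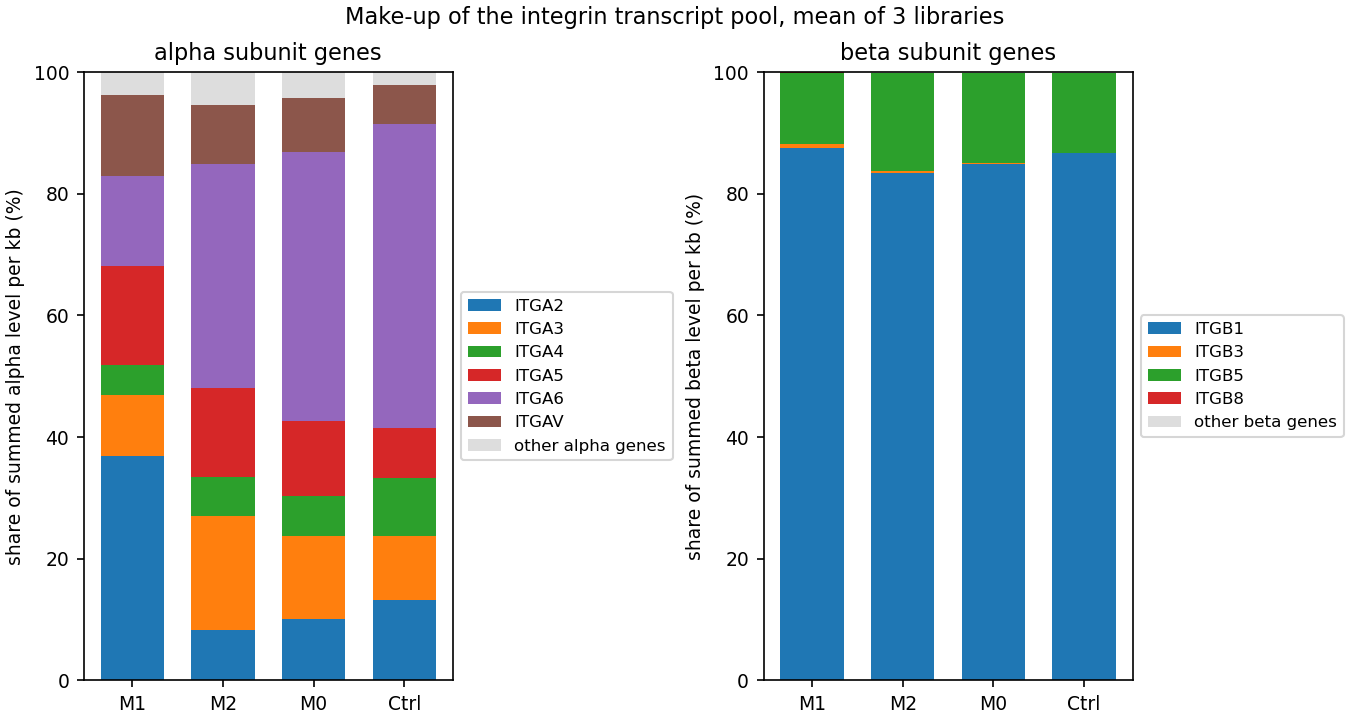
Mean share (y axis, percent of summed level per kb, stacked) of each subunit among α transcripts on the left and β transcripts on the right, in M1, M2, M0 and Ctrl with n = 3 each. ITGA2 takes 36.9% of the α transcripts in M1 and 8.25% to 13.1% in the other groups, and ITGB1 takes 83.4% to 87.6% of the β transcripts throughout, with ITGB3 a thin band at most and ITGB8 too small to see.

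The remaining 16 integrin genes were mostly at low levels. Of these 5 passed the filter, and the other 11 had group means of at most 0.220 CPM, with ITGA8 at 0 reads in every library. Leukocyte subunits were among the lowest, with 5 reads of ITGB2 in M1, 10 in M2, 10 in M0 and 6 in Ctrl. ITGA1, the α1 chain of the other widespread collagen receptor, averaged 58.7 ± 7.66 CPM in M1, 27.4 ± 1.23 CPM in M2, 31.0 ± 1.71 CPM in M0 and 32.6 ± 3.53 CPM in Ctrl. It rose in M1 over M0 by a log2 of 0.92 (edgeR adjusted p = 2.56e-06) and was the 1 gene of the 5 that rose there. ITGAE, the αE chain known from lymphocytes of epithelia, was the 1 that fell, with 7.80 ± 0.432 CPM in M1, against 13.5 ± 0.0182 CPM in M0 and a log2 of -0.79 (edgeR adjusted p = 7.94e-06). ITGA11, a collagen-binding chain best known from fibroblasts, averaged 71.9 ± 8.51 CPM in M1, 89.3 ± 0.823 CPM in M2 and 77.8 ± 12.9 CPM in M0, against 37.4 ± 6.19 CPM in Ctrl. It rose over Ctrl in each, by log2 0.94, 1.25 and 1.05 in M1, M2 and M0. ITGB4, the partner of α6 in hemidesmosomes, stood at 0.437 ± 0.163 CPM in M1, against 0.712 ± 0.192 CPM in M0, and did not pass (edgeR adjusted p = 0.124).

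Ligands, regulators and partners of integrins were counted from lists. In M1 against M0 25.5% of all genes were called higher and 26.7% lower, with a median log2 fold change of -0.01. Of 25 measured ligand genes of 34 listed, 14 rose and 3 fell there, with a median of 0.30. The 3 most changed were LAMB3, which encodes the β3 chain of laminin-332, with 102 ± 12.1 CPM in M1, against 14.9 ± 0.906 CPM in M0 (log2 2.77), LAMA3, its α3 chain, with 9.33 ± 0.933 CPM in M1, against 1.77 ± 0.312 CPM in M0 (log2 2.41), and THBS1, thrombospondin 1, with 559 ± 19.6 CPM in M1, against 198 ± 36.4 CPM in M0 (log2 1.50). Laminin-332 is a ligand of α3β1 and α6β4, and of these chains ITGB1 rose, ITGA6 fell, and ITGA3 and ITGB4 did not pass. In M2 against M0 10 ligand genes rose and 2 fell, beside 12.5% of all genes called higher and 12.7% lower. TNC, the matrix protein tenascin C, led with 666 ± 78.4 CPM in M2 and 189 ± 33.2 CPM in M0 (log2 1.82). COL5A1, a fibrillar collagen chain, followed with a log2 of 0.86. Without M0 replicate 3 and M2 replicate 2, 5 rose and 1 fell, and 520 of all genes were called in place of 3553. In M1 against M2 10 ligand genes rose and 5 fell, beside 15.9% of all genes called higher and 16.6% lower. LAMB3 stood at log2 3.39, LAMA3 at 1.97 and TNC at -1.10.

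Genes that switch integrins on or off moved both ways. Of 14 measured (15 listed) 4 rose and 4 fell in M1 against M0, beside 25.5% of all genes called higher and 26.7% lower. The fallen numbered 2 in the fit of these groups alone and when M0 replicate 1, M0 replicate 2, M0 replicate 3 or M1 replicate 2 was left out. FERMT3, the kindlin of blood cells, had 1.11 ± 0.158 CPM in M1 and 0.507 ± 0.176 CPM in M0 (log2 1.17), and ITGB1BP1, which encodes ICAP-1, an inhibitor that binds the β1 tail, had 55.7 ± 1.49 CPM in M1 and 83.6 ± 7.22 CPM in M0 (log2 -0.59). FBLIM1, which encodes a filamin partner, had a log2 of 0.65. In M2 against M0 3 rose and 1 fell, beside 12.5% of all genes called higher and 12.7% lower. Without M0 replicate 3 and M2 replicate 2 none of the list passed, and 520 of all genes were called in place of 3553.

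Of 30 adhesion site and signalling genes 10 rose and 5 fell in M1 against M0, a share near the 52.2% of all genes called, with a median log2 of 0.09. NEDD9, a docking protein downstream of focal adhesion kinase, had 6.39 ± 0.505 CPM in M1 and 0.903 ± 0.242 CPM in M0 (log2 2.80). TNS1, a tensin that links β tails to actin, had 1.50 ± 0.621 CPM in M1 and 7.55 ± 1.21 CPM in M0 (log2 -2.29), while its relative TNS3 had 182 CPM in M1, against 102 CPM in M0 (log2 0.84). In M2 against M0 7 rose and 1 fell, beside 12.5% of all genes called higher and 12.7% lower. Without M0 replicate 3 and M2 replicate 2, 1 rose and 0 fell, and 520 of all genes were called in place of 3553. In M1 against M2 6 rose and 10 fell, beside 15.9% of all genes called higher and 16.6% lower.

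Among 13 membrane partners 3 rose and 5 fell in M1 against M0, beside 25.5% of all genes called higher and 26.7% lower. Their median log2 was -0.05. CD82, a tetraspanin that binds β1 integrins, had 11.4 ± 2.39 CPM in M1, 0.717 ± 0.135 CPM in M2 and 2.13 ± 0.868 CPM in M0, with a log2 of 2.40 in M1 and -1.57 in M2, each against M0. The M2 value was -1.13 without M0 replicate 3 and M2 replicate 2 (edgeR adjusted p = 0.0602). CAV1, caveolin 1, had 132 ± 7.11 CPM in M1 and 421 ± 38.7 CPM in M0 (log2 -1.67), and the tetraspanin gene TSPAN4 had 62.3 ± 17.6 CPM in M1 and 107 ± 1.50 CPM in M0 (log2 -0.78). In M2 against M0 0 rose and 4 fell, beside 12.5% of all genes called higher and 12.7% lower. Without M0 replicate 3 and M2 replicate 2, 0 rose and 1 fell, and 520 of all genes were called in place of 3553.

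Against fresh medium 61.7% to 70.2% of all genes were called, and the lists are to be read beside that. Ligand genes that rose and fell numbered 13 and 7 in M1, 13 and 5 in M2 and 13 and 6 in M0. CTGF, a matrix-associated protein that binds integrins, averaged 462 ± 25.2 CPM in M1, 717 ± 25.5 CPM in M2 and 644 ± 92.0 CPM in M0, against 100 ± 14.8 CPM in Ctrl. Adhesion site genes that rose and fell numbered 14 and 10 in M1, 14 and 9 in M2 and 11 and 10 in M0. TNS1 was at 1.50, 8.20 and 7.55 CPM in M1, M2 and M0, against 36.1 ± 1.32 CPM in Ctrl. Of the 13 membrane partners 3 rose and 8 fell in M1, 1 rose and 8 fell in M2, and 1 rose and 6 fell in M0, where 35.0%, 32.4% and 30.6% of all genes were called lower in M1, M2 and M0. SLC3A2, which encodes CD98 heavy chain, a β1 partner and amino acid transporter subunit, ran the other way at 675 ± 15.2 CPM in M1, 815 ± 16.8 CPM in M2 and 803 ± 45.7 CPM in M0, against 115 ± 16.7 CPM in Ctrl. Activators and inhibitors that rose and fell numbered 4 and 3 in M1, 5 and 4 in M2 and 3 and 5 in M0. In M2 those that rose numbered 3 without Ctrl replicate 1, Ctrl replicate 2, M2 replicate 1 or M2 replicate 3, and in M0 those that fell numbered 3 without Ctrl replicate 3 or M0 replicate 1.

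**Figure D4:**
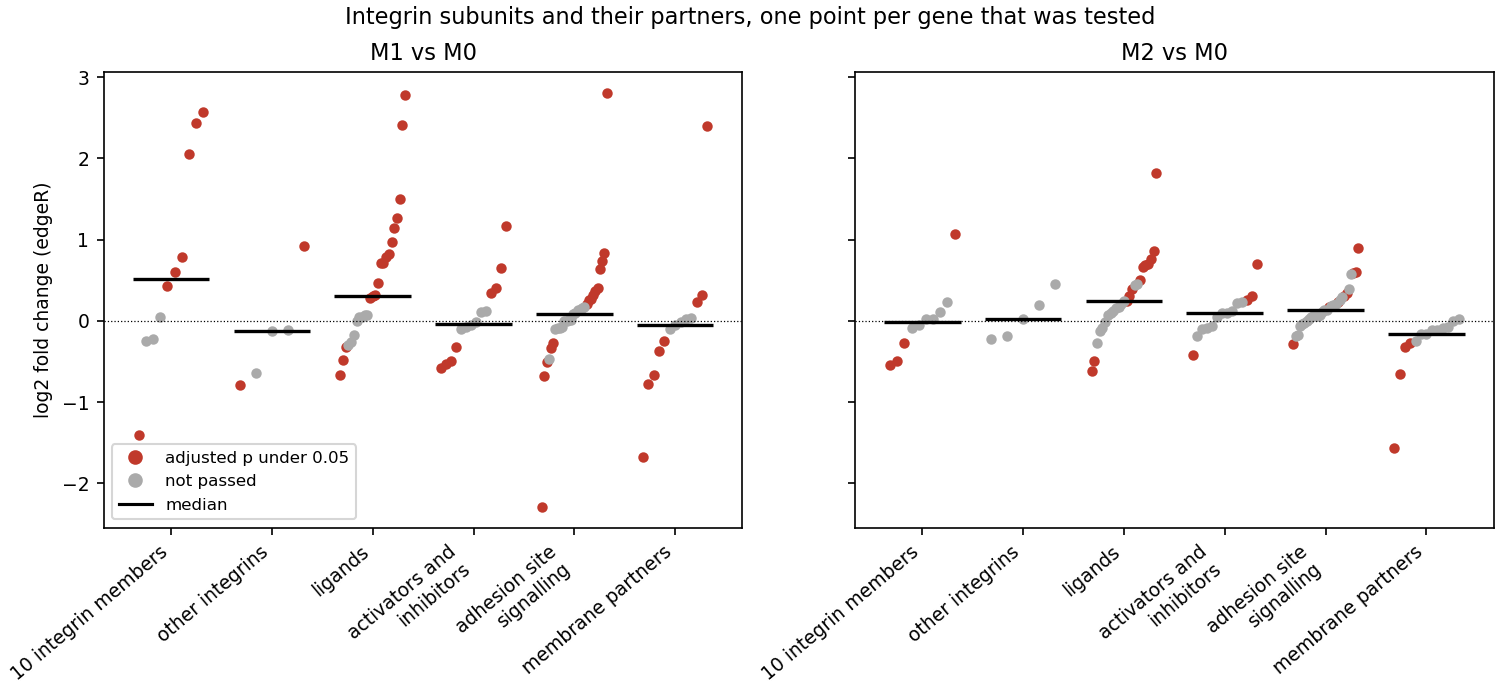
Log2 fold change (y axis, edgeR) of every tested gene in the subunit, other integrin, ligand, regulator, adhesion site and membrane partner lists, for M1 against M0 on the left and M2 against M0 on the right. Red points had an adjusted p under 0.05, grey points did not pass, and lines are list medians, at 0.51 on the left and -0.02 on the right for the 10 subunits and at 0.30 on the left and 0.25 on the right for the ligands.

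The genes most like each subunit were taken by Pearson's r of log2 CPM over the 12 libraries, among 11874 genes with a mean of at least 1 CPM. The libraries share groups and scaling, so these r describe a profile over 4 media. For ITGA2 they were TAP2 (r = 0.992) and IFNAR1 (0.986), and for ITGA6 CORO1C and DCC (0.992 each). For ITGAV they were TRIM37 (0.989) and PTPRK (0.988), for ITGB3 ARFGEF2 (0.995), and for ITGB8 C6orf62 (0.979) and GNPTAB (0.977). ITGA4 was nearest to VPS50 and IPO8 (0.995 each), ITGB1 to ADAMTS12 (0.974) and NAV2 (0.973), and ITGA5 to MYADM (0.964) and ROBO1 (0.963). The closest genes to ITGA3 were FUK (0.934) and THBS3 (0.928), and to ITGB5 SNX29 (0.946) and DHRS3 (0.935). More than r 0.95 was reached by 421 genes for ITGA4, 327 for ITGB3, 139 for ITGA6, 85 for ITGAV, 35 each for ITGA2 and ITGB1, 20 for ITGB8, 3 for ITGA5 and 0 for ITGA3 and ITGB5.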

How the data were processed

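RNA-seq of 12 MV3 samples was used, 3 for each of 4 media, with groups and replicate numbers from the labels. Per the labels' protocols, single reads of 50 nt came from TruSeq stranded mRNA libraries, which were run 2 times and are merged in the files. Per the submitters' processing notes, build hg38, STAR 2.5.4b, Bowtie2 2.2.3 and DESeq2 1.20.0 were among what was used, with Trimmomatic 0.36 and FastQC 0.11.7 for the reads. How reads were counted, on which strand and with which annotation is not given in the sources used here, so reads on overlapping genes cannot be told apart. The authors deposited raw counts per gene, whose per-sample files equalled the joint table in 12 of 12 cases. A deposited table of variance-stabilized values on a log2 scale gave gene symbols and an alternative test.

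The test on counts was that of edgeR 4.0.16, run in R 4.3.3 (quasi-likelihood F test, TMM, filterByExpr with minimum count 10 and total 15, group means of all 12 libraries, Benjamini-Hochberg adjustment over 14088 genes at 0.05). SEs come from log2 CPM with a prior count of 2, another estimate than the fitted fold change. Exon lengths and coordinates are from GENCODE release 29 on GRCh38, which held 58025 of the identifiers without their version. Replicates differed by more than sampling noise (chi-square per degree of freedom 3.01 to 25.62). Pairs with Ctrl replicate 1 stood at 20.34 and 25.62, against 4.21 for the other Ctrl pair. Pairs with M1 replicate 2 stood at 18.89 and 19.75, against 4.34 for the other M1 pair. M2 replicates 2 and 3 were the closest pair by this measure, at 3.01. The fit was tested on simulated counts for M1 against M0, with 50 genes changed at each of several sizes. It recovered 16% of 1.2-fold, 76% of 1.6-fold, 86% of 2-fold and 92% of 4-fold changes. Small changes that did not pass are thus not shown to be absent. Alternatives were RLE scaling, no filter, DESeq2 1.42.0, limma 3.58.1 on the log2 values, a replicate block, the compared groups alone, and leaving out libraries.

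The members and the gene lists were chosen with earlier results of these data known. All 10 members are named in each comparison. Of other lists the text names, per comparison, at most the 3 genes with the largest absolute log2 fold change among called genes that reach 1 CPM in a group, and for each member the 2 genes of highest r, of which 1 is not reported here.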

Additional observations from a re-analysis of the deposited data

Results flagged for a closer look

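ITGA2 was singled out because it moved in opposite directions under the polarized media. Its log2 fold change was 2.05 in M1 against M0 and -0.54 in M2 against M0, and the difference between these effects, tested as M1 against M2, was a log2 of 2.59 (edgeR adjusted p = 1.92e-08, higher in all 3 M1 libraries than in any M2 library). The fall in M2 against M0 did not pass without M0 replicate 1, M0 replicate 3, M2 replicate 2 or M2 replicate 3 (adjusted p = 0.0663, 0.211, 0.118 and 0.0772). The difference between M1 and M2 does not use the M0 libraries other than for the shared spread.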

How the results depend on the processing

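Results depended most on the libraries used in M2 against M0. There 4 of the 10 genes were called, 2 to 4 when 1 library was left out, and 0 when M0 replicate 3 and M2 replicate 2 were both left out, where 520 genes in all were called in place of 3553; without M0 replicate 3 alone 1595 were called. Leaving out 1 library gave 7 to 8 called members in M1 against M0, 8 in M1 against M2, 8 to 9 in M1 against Ctrl, 5 to 8 in M2 against Ctrl and 5 to 7 in M0 against Ctrl. Of the 60 log2 fold changes, all 60 kept their direction where called and their side of the threshold with DESeq2, with RLE scaling and with limma on the variance-stabilized values, 59 in fits of the compared groups alone and 56 without a filter; the rest then passed. None reversed under any alternative. Same-numbered replicates were not treated as paired, since the labels give a number alone and 6 of 18 correlations of their deviations, which ran from -0.08 to 0.15, were over 0.1. The own number was highest in 20 of 36 cases, a hint of pairing from the data and not from the design. With the replicate block, members called numbered 8 in M1 against M0, 4 in M2 against M0 and 8 in M1 against M2, and 9, 7 and 5 in M1, M2 and M0 against Ctrl. The members gained were ITGA3 in M1 against M0 (log2 -0.26, adjusted p = 0.0432) and ITGB8 in M1 against Ctrl (log2 0.46, adjusted p = 0.0142). Depth limits ITGB3 and ITGB8 most, and the cause of the changes between settings was not tested.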
